A study of Mus musculus with 12 samples.

Results

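The 6 genes followed here mark red blood cells and were read through RNA libraries of sorted natural killer T (NKT) cells. They are the adult alpha globin genes Hba-a1 and Hba-a2, the adult beta globin rows Hbb-b1, Hbb-b2 and Beta-s, and Alas2, the erythroid enzyme that starts haem synthesis. They were chosen by symbol, as a measure of red cell RNA in the sorts, and all 6 were found among the 23284 genes of each deposited table. The choice was made with their levels in these libraries known, so their levels and differences are described here without a test.

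NKT cells respond to lipid antigens that the CD1d molecule displays. From thymus and liver of C57BL/6 mice, the study sorted cells negative for 7AAD, CD45R, CD4 and CD8 and positive for CD1d dimer and TCRb. Each of 4 groups has 3 libraries. Thymus cKO and liver cKO cells came from mice with floxed Rag2 and a Cre under the E8III enhancer, which is active from the double-positive (DP) stage of thymocytes, so their NKT cells are of double-negative origin. Thymus YFP+ and liver YFP+ cells came from mice with the same Cre and a Rosa26-loxP-STOP-loxP allele, and are of DP origin. All groups carry the Cre, and only the cKO mice lose Rag2, so an effect of cell origin cannot be told apart from one of the mouse. For the liver libraries the title and the column header name one mouse and the description names the other. The titles were used, so if the descriptions are right, each difference given for the liver has the opposite sign. Age, sex and pooling of the mice are not given in the sources used here, and removal of red cells before the sort is not mentioned in them. Whether replicates came from separate animals is not stated either. A p-value here sets a difference against the spread between libraries, and that spread may be technical.

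Values are FPKM, fragments scaled to transcript length and to all mapped fragments, as the authors deposited them, with a table of its own for each tissue and a separate normalization. Rag2, the gene deleted in cKO mice, had 0, 0.015 and 0 FPKM in thymus cKO and 0 in each thymus YFP+ library. Rag2 was listed at 0 in all liver cKO libraries, against 1.365, 0.985 and 1.075 FPKM in liver YFP+. Rag1, which is not the deleted gene, was lower in liver cKO too. It was at 0.196, 0.146 and 0.223 FPKM there, against 1.957, 1.328 and 1.886 FPKM in liver YFP+. The Rag2 values are therefore not read as a check of the deletion or of the titles. The T cell genes Cd3e, Cd3d and Cd3g were high in all 12 libraries, with Cd3e at 292 to 295 FPKM in thymus cKO, 348 to 367 in thymus YFP+, 1018 to 1048 in liver cKO and 1022 to 1069 in liver YFP+. The hepatocyte gene Alb did not exceed 0.294 FPKM in any library.

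Adult haemoglobin is a tetramer of alpha and beta chains with a haem group in each chain. Red cell precursors transcribe the globin genes at very high levels under GATA1, KLF1 and TAL1. The anucleate reticulocytes that leave the bone marrow still hold globin mRNA, so blood left in a tissue brings globin RNA into a sample. Alas2 makes the first intermediate of haem in erythroid cells, while Alas1 does so in other cells. Background knowledge also says that C57BL/6 mice carry the beta globin haplotype with Hbb-bs (the Beta-s of the tables) and Hbb-bt, and that the names Hbb-b1 and Hbb-b2 belong to the genes of another haplotype.

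The promoters of the members are shown as background, and no link to the levels in these libraries was tested. RefSeq sequence on GRCm38.p6 was found for 4 of the 6 members, with Beta-s matched to Hbb-bs by its synonym, and not for Hbb-b1 and Hbb-b2. The 250 bases before each start are given 5′ to 3′ on the strand of the gene. Capitals mark matches, on either strand, to 4 motifs. They are GATAA, a core bound by GATA factors, and CACCC, one bound by Krüppel-like factors. The others are the CCAAT box and the TATA box core, TATAA.
Hba-a1, chr11:32283422-32283671, + strand: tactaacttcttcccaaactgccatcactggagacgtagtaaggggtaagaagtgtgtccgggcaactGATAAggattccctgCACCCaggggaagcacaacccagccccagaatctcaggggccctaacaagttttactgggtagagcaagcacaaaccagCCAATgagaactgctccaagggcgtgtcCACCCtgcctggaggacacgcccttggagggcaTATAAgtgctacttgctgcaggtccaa
Beta-s (Hbb-bs), chr7:103827929-103828178, - strand: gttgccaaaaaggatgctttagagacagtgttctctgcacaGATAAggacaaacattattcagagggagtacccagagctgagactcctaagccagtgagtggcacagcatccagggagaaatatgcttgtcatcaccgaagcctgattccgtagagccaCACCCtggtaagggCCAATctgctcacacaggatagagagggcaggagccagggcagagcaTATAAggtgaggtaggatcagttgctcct
Alas2, chrX:150547167-150547416, + strand: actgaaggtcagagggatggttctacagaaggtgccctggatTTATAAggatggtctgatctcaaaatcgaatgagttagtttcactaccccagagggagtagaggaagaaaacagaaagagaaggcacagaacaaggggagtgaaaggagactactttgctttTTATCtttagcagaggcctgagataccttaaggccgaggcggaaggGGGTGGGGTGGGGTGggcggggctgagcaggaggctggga
The window of Hba-a2 (chr11:32296242-32296491, + strand) is not printed, because it matches that of Hba-a1 at 247 of 247 bases once shifted by 3.

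Both globin promoters printed hold all 4 motifs. In Hba-a1 the GATAA match begins 182 bases before the start, CACCC matches at 167 and 60, CCAAT at 88 and TATAA at 27. In Hbb-bs the GATAA match begins at 209 bases, CACCC at 90, CCAAT at 76 and TATAA at 29. The Alas2 window holds no CCAAT, has GATAA on the opposite strand at 86 bases and CACCC on the opposite strand at 40, 35 and 30 bases, and has 2 TATAA matches that overlap, 1 on each strand, at 208 and 207 bases. Of 32851 promoter windows of the same length, 22.6% hold GATAA, 52.0% CACCC, 33.85% CCAAT and 22.8% TATAA, and 0.968% hold all 4. A match describes letters in this window and shows no binding.

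In the liver, all 5 globin rows were far lower in cKO than in YFP+ libraries. Together the 6 members summed to 18.2, 12.2 and 18.5 FPKM in liver cKO, against 974, 967 and 848 FPKM in liver YFP+. The cKO mean was 1.75% of the YFP+ mean. No cKO library came near a YFP+ library.

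Hba-a1, which encodes the alpha chain, was at 3.08, 2.89 and 4.05 FPKM in liver cKO, against 170.0, 167 and 145 FPKM in liver YFP+. Hba-a2 encodes the alpha chain too and was at 3.07, 2.88 and 4.03 FPKM in liver cKO, against 169, 166 and 144 FPKM in liver YFP+. Within each group the alpha globin values lay close together, and the gap between the groups was far wider than that spread. On the log2(FPKM + 1) scale, relative to the median gene, Hba-a1 differed by -5.11 and Hba-a2 by -5.11 (cKO minus YFP+). The median of all tested genes lay at -0.11 in the liver and at -0.16 in the thymus, and log2 differences are given relative to it here.

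Among the beta globin rows, Hbb-b1 was at 3.80, 2.001 and 3.31 FPKM in liver cKO, against 199.7, 198 and 174 FPKM in liver YFP+. Hbb-b2 was at 3.86, 2.03 and 3.36 FPKM in liver cKO, against 203, 201.1 and 177 FPKM in liver YFP+. Beta-s had the highest level of the 6 members in each liver YFP+ library, at 4.38, 2.35 and 3.59 FPKM in liver cKO, against 232, 234 and 207 FPKM in liver YFP+. The log2 differences relative to the median gene were -5.49 for Hbb-b1, -5.49 for Hbb-b2 and -5.58 for Beta-s. Of 9591 genes tested in the liver, the 5 globin rows were the 5 with the lowest log2 difference, Beta-s first. The members were chosen with these values known and some rows are near-identical, so nothing is read from these places.

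Alas2 was at 0.015, 0.027 and 0.153 FPKM in liver cKO, against 0.461, 0.786 and 1.007 FPKM in liver YFP+. These are low levels, yet the groups did not overlap. Its cKO mean was 8.65% of its YFP+ mean, and its log2 difference was -0.60, where the pseudocount of 1 hides most of a change at such levels. For all 6 members the liver groups did not overlap, with cKO lower, and 15.1% of all 23284 rows did the same. The choice of members used these values, so nothing is read from that count. The mean of 1 FPKM at which genes were tested was reached by 5 of the 6 members in each tissue and not by Alas2. In the thymus they reached it only through cKO replicates 1 and 3, and in the liver mainly through YFP+.

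In bulk RNA, fewer red cells and less RNA per red cell cannot be told apart.

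**Figure D1:**
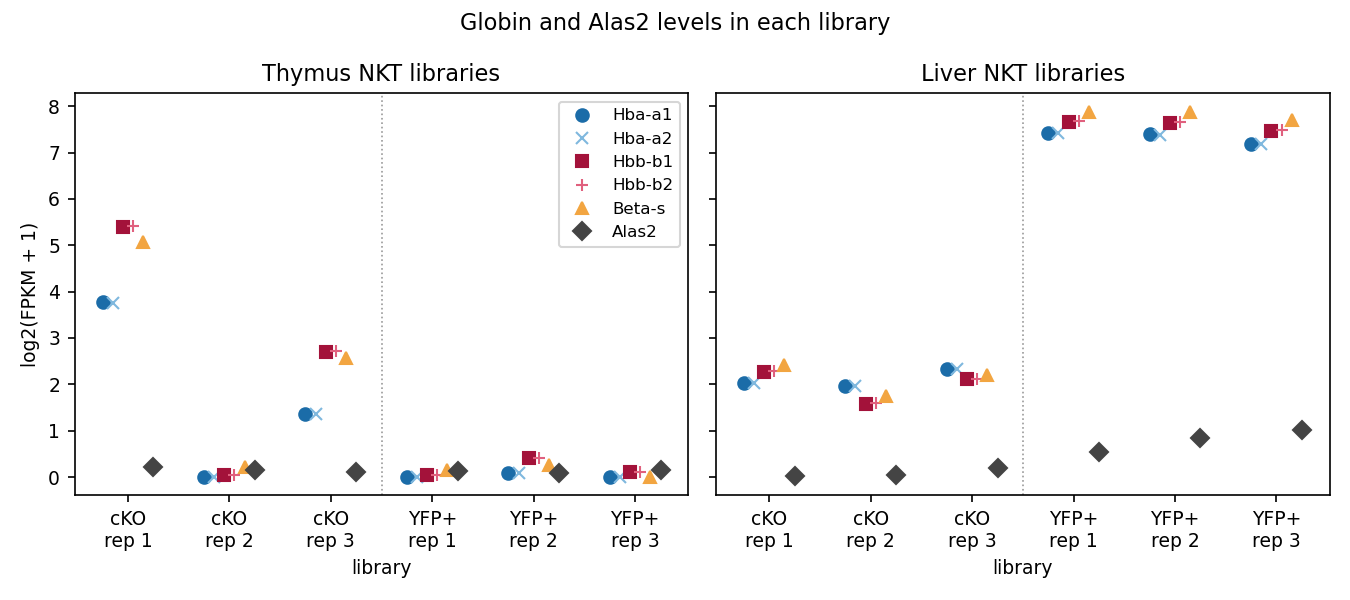
Levels of the 6 members in each library as log2(FPKM + 1), thymus on the left and liver on the right, with 1 point per gene and library. The liver YFP+ globin points lie far above the liver cKO points, and in the thymus cKO replicate 1 and then replicate 3 stand above the other 4 libraries.

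The thymus showed another pattern, in which single libraries stood apart. The 6 members summed to 140.3, 0.346 and 19.3 FPKM in thymus cKO, against 0.271, 1.04 and 0.254 FPKM in thymus YFP+. Replicate 1 carried most of the globin RNA of the cKO group and replicate 3 some, while replicate 2 lay within the range of the YFP+ libraries. The groups therefore overlapped for all 6 members; over all rows 17.8% did not overlap with cKO lower, and 7.15% with cKO higher.

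Hba-a1 was at 12.6, 0 and 1.58 FPKM in thymus cKO, against 0, 0.070 and 0 FPKM in thymus YFP+. Hba-a2 was at 12.6, 0 and 1.57 FPKM in thymus cKO, against 0, 0.069 and 0 FPKM in thymus YFP+. A listed 0 can be a failed estimate and is not evidence of absence. The beta rows were detected in more libraries than the alpha rows.

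Hbb-b1 was at 40.8, 0.034 and 5.51 FPKM in thymus cKO, against 0.030, 0.322 and 0.071 FPKM in thymus YFP+. Hbb-b2 was at 41.4, 0.034 and 5.59 FPKM in thymus cKO, against 0.031, 0.326 and 0.072 FPKM in thymus YFP+. Beta-s was at 32.7, 0.167 and 4.94 FPKM in thymus cKO, against 0.119, 0.191 and 0 FPKM in thymus YFP+. Among thymus YFP+ libraries replicate 2 was the highest for each globin row. Alas2 followed only in part, at levels near 0. It was at 0.160, 0.111 and 0.078 FPKM in thymus cKO, against 0.091, 0.064 and 0.111 FPKM in thymus YFP+. Its highest value was in cKO replicate 1, but cKO replicate 3 lay below replicate 2.

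The difference of the summed members on the log2(FPKM + 1) scale, as deposited, was 3.40 in the thymus, and 1.82 without cKO replicate 1 or 5.17 without cKO replicate 2. The SD within groups was 2.40 on that scale, so the thymus difference rested on which cKO libraries were counted. In the liver the same difference was -5.77 with an SD of 0.240, and leaving out any 1 of the 6 liver libraries gave -5.87 to -5.59.

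As a share of all FPKM of a library, the members held 721, 1.84 and 99.2 ppm in thymus cKO, 1.36, 5.15 and 1.19 in thymus YFP+, 39.9, 27.0 and 39.8 in liver cKO, and 1746, 1771 and 1666 in liver YFP+. The liver YFP+ libraries thus ranked highest. Thymus cKO ran from below the liver cKO values to above them, and its lowest library lay within the range of thymus YFP+, so it overlapped both of its neighbours in this order. Liver cKO lay above thymus YFP+ without overlap, but these shares come from separately normalized tables, so they stand side by side and were not tested.

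Beta-s was the 311th, 295th and 306th highest of all rows in the liver YFP+ libraries. In the liver cKO libraries its places were 5832, 7544 and 6408. Even in the highest libraries the members were a small part of the RNA, 0.175%, 0.177% and 0.167% of the summed FPKM in liver YFP+.

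The rows of near-identical genes are not separate measurements. In the 8 libraries where Hba-a1 was at 1 FPKM or more, Hba-a2 was 0.9956 to 0.9960 times Hba-a1, although the libraries span 2 tissues and levels of 1.58 to 170.0 FPKM. Hbb-b2 was 1.015 to 1.016 times Hbb-b1 in the 8 libraries where Hbb-b1 reached 1 FPKM. The level of either copy is therefore uncertain. In the GENCODE annotation of mm10, 67.5% of the 50-base stretches of the main Hba-a1 transcript also occur in that of Hba-a2, and 86.9% of those of Hba-a2 occur in Hba-a1. For Hbb-bs and Hbb-bt the shares are 65.8% and 58.3%, and Hba-a1 and Hbb-bs share no such stretch.

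Beta-s moved more freely against Hbb-b1. It was 0.803 and 0.896 times Hbb-b1 in thymus cKO replicates 1 and 3, 1.15, 1.18 and 1.08 times in liver cKO, and 1.16, 1.18 and 1.19 times in liver YFP+. The beta rows summed to 4.56 and 5.10 times the alpha rows in thymus cKO replicates 1 and 3, to 1.95, 1.11 and 1.27 times in liver cKO, and to 1.87, 1.90 and 1.93 times in liver YFP+. The ratio of beta to alpha was thus steady within liver YFP+ and varied among liver cKO libraries, where levels were low. Thymus and liver come from separate tables, which the authors named paired and single, so the ratio was not compared between tissues.

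**Figure D2:**
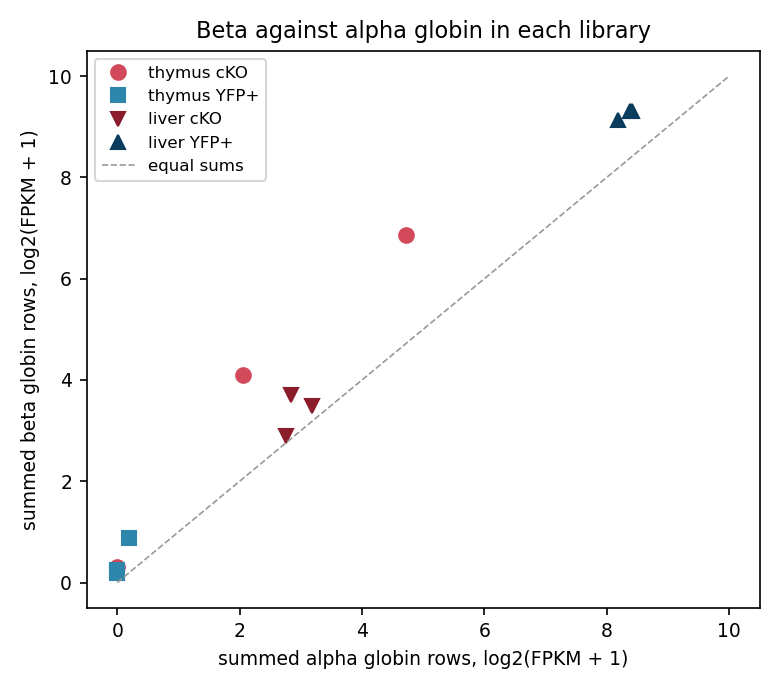
Summed beta globin rows (vertical axis) against summed alpha globin rows (horizontal axis), both as log2(FPKM + 1), with 1 point per library coloured by group and a dashed line of equal sums. Every library lies on or above the line, and the 2 high thymus cKO libraries have beta sums of 4.56 and 5.10 times their alpha sums.

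Across the 6 libraries of a tissue, Alas2 followed the globins in the liver (Pearson r of 0.918 to 0.921 with each globin row, on log2 values) and less closely in the thymus (0.612 to 0.695). The globin rows correlated with each other at 0.991 or more in both tissues. These libraries share the group difference, so the values describe only how the rows moved. The alpha rows can also share reads with each other, as may the beta rows, while Hba-a1 and Hbb-bs shared no 50-base stretch.

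Other red cell genes were then read beside the members. Of 98 symbols on 6 lists of erythroid and haem genes, 90 were in the tables. Slc4a1, the band 3 anion exchanger, was at 0 in liver cKO and at 0, 0.017 and 0 FPKM in liver YFP+.

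Of the 16 genes on the list of erythroid regulators, those that drive globin transcription in red cell precursors were low. Klf1 was at 0.085, 0 and 0.043 FPKM in liver cKO, against 0.543, 0 and 0 FPKM in liver YFP+. Gata1 was at 0.074, 0 and 0.038 FPKM in liver cKO, against 0.11, 0.321 and 0.179 FPKM in liver YFP+. Tal1, which acts with GATA1, was listed at 0 in all 12 libraries. Epor, the erythropoietin receptor, did not exceed 0.087 FPKM in any library. Nfe2, another erythroid and megakaryocytic factor, was at 0.243, 0.366 and 0.329 FPKM in liver cKO, against 0.878, 0.834 and 0.783 FPKM in liver YFP+. Other genes of the list were well detected. Ldb1, a cofactor that many cell types express, was at 12.6, 14.7 and 11.8 FPKM in liver cKO, against 12.4, 11.8 and 11.3 FPKM in liver YFP+, and Zfpm1, the GATA1 cofactor FOG1, reached 8.40 FPKM in the thymus. Nfe2 and Zfpm1 were singled out after their values were seen.

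Carbonic anhydrase Car2 averaged 0.0943 ± 0.126 FPKM in liver cKO and 0.513 ± 0.193 in liver YFP+ (SD, n = 3 each), below the tested level. Epb4.2, protein 4.2 of the membrane skeleton, averaged 1.004 ± 0.390 FPKM in liver cKO and 0.675 ± 0.166 in liver YFP+, so it did not go with the globins. Summed over Slc4a1, Epb4.2, Klf1, Gata1, Car1 and Car2, the red cell markers beside the members came to 0.956 to 1.61 FPKM in liver cKO and 1.32 to 1.95 in liver YFP+. In the thymus they came to 0.240 to 0.572 FPKM in cKO and 0.639 to 0.714 in YFP+, and the lowest value belonged to cKO replicate 1, the library with the most globin RNA. None of these genes exceeded 0.398 FPKM in a thymus library, so nothing is read from the order of such low sums.

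Other globin genes were read for the same libraries. Hba-x, the embryonic alpha-like globin, was at 2.51 FPKM in thymus cKO replicate 1 and listed at 0 in the other 11 libraries. Hbb-bh1, an embryonic beta-like globin, was listed at 0 in all 12. Hbb-y, another embryonic beta-like globin, was at no more than 0.243 FPKM. Hba-x, Hbb-bh1, Hbb-y and Tal1 were singled out after their values were seen.

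**Figure D3:**
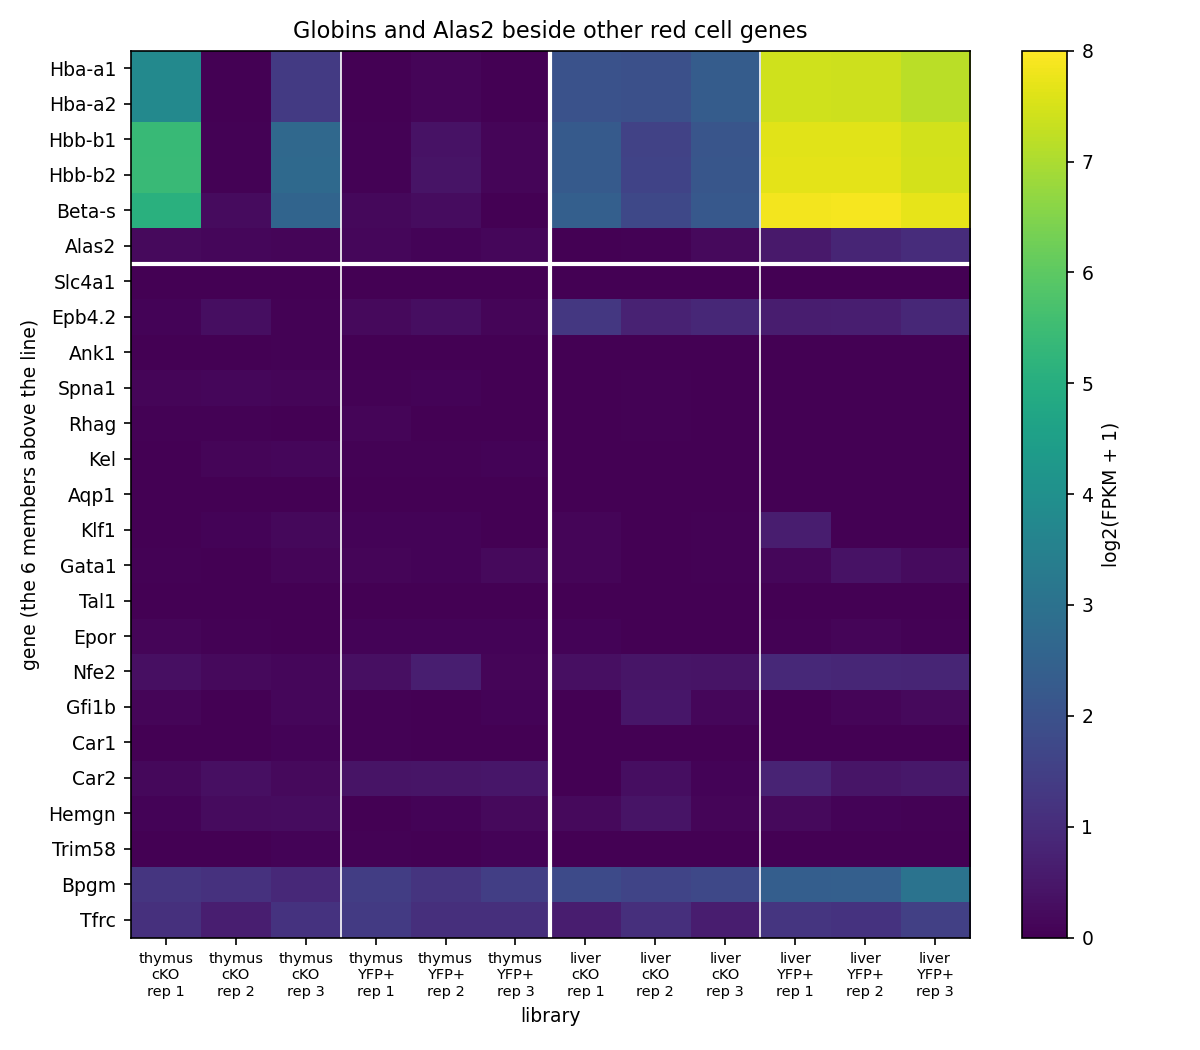
Heat map of the 6 members and 19 other red cell genes (rows) in the 12 libraries (columns), coloured by log2(FPKM + 1), with cKO left of YFP+ in each tissue. The globins are bright in liver YFP+, and most other red cell genes are dark in every library.

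Of the other erythroid and haem genes, 40 had a mean high enough to be tested in the liver. With limma on log2(FPKM + 1) and Benjamini-Hochberg adjustment, 2 were higher and 12 lower in cKO, 35% of the 40, beside 27.2% of all genes tested. The list's median log2 difference as deposited was -0.15, beside -0.11 for all genes. With libraries rescaled by median ratios the split was 3 higher and 10 lower, and 4 higher and 7 lower with libraries scaled to the FPKM outside the members.

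Blvrb and Bpgm, genes of red cell metabolism, were among the largest decreases. Blvrb, biliverdin reductase B, fell to 1.93 ± 0.304 FPKM in liver cKO, against 4.86 ± 2.015 in liver YFP+ (log2 difference relative to the median gene -0.84, SE 0.23, adjusted p = 0.0189 with limma). Bpgm, which makes the 2,3-bisphosphoglycerate that lowers the oxygen affinity of haemoglobin, fell to 2.30 ± 0.175 FPKM in liver cKO, against 5.28 ± 1.70 in liver YFP+ (-0.79, SE 0.19, adjusted p = 0.0100). The Blvrb call ended without liver cKO replicate 2 (adjusted p = 0.0695). When genes of low level were kept in the fit, both calls ended (adjusted p = 0.124 for Blvrb and 0.0761 for Bpgm).

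Haem synthesis genes did not go one way. Alad and Uros, enzymes of the second and the fourth step, were lower in liver cKO, Alad at 21.5 ± 2.88 FPKM in liver cKO, against 31.4 ± 2.56 in liver YFP+ (adjusted p = 0.0118 with limma) and Uros at 7.69 ± 0.277 FPKM in liver cKO, against 11.6 ± 1.24 in liver YFP+ (adjusted p = 0.00922). With libraries scaled to the FPKM outside the members, both calls ended (adjusted p = 0.117 and 0.107). Alas1, the enzyme of the first step in non-erythroid cells, was higher in liver cKO, at 10.6 ± 0.603 FPKM against 7.81 ± 0.729 in liver YFP+ (adjusted p = 0.0307), opposite in direction to the Alas2 values. That call held only without YFP+ replicate 3 among the fits that left out 1 library, with adjusted p of up to 0.104. Fech, which inserts the iron, averaged 3.25 ± 0.985 FPKM in liver cKO and 4.86 ± 1.11 in liver YFP+ (adjusted p = 0.117).

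Fth1, the ferritin heavy chain that stores iron, fell to 1047 ± 26.8 FPKM in liver cKO, against 1547 ± 99.4 in liver YFP+ (adjusted p = 0.00139 with limma). Fam46c fell to 5.78 ± 0.638 FPKM in liver cKO, against 11.9 ± 0.886 in liver YFP+ (adjusted p = 0.00129). Isca1, an iron-sulphur cluster assembly gene, fell to 23.5 ± 2.55 FPKM in liver cKO, against 38.4 ± 2.48 in liver YFP+ (adjusted p = 0.00278), and Zfp36l2, an RNA-binding protein gene, to 62.4 ± 3.50 FPKM in liver cKO, against 93.3 ± 5.69 in liver YFP+ (adjusted p = 0.00224). Prdx2, a peroxidase abundant in red cells, fell to 76.1 ± 4.39 FPKM in liver cKO, against 105 ± 8.45 in liver YFP+ (adjusted p = 0.00652). These 5 kept their calls in all 11 alternatives. Prdx2 was singled out beyond the genes chosen by rule. Ubac1, on the same list as Prdx2, went the other way. It was at 17.0 ± 1.73 FPKM in liver cKO, against 12.5 ± 0.225 in liver YFP+ (adjusted p = 0.0203 with limma). That call was kept in 8 of 11 alternatives. T cells also express Fth1, Zfp36l2 and Prdx2.

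Tfrc, the transferrin receptor that brings in iron, averaged 0.738 ± 0.307 FPKM in liver cKO and 1.48 ± 0.332 in liver YFP+ (adjusted p = 0.0573 with limma). Hmox1, which breaks down haem, averaged 0.581 ± 0.323 FPKM in liver cKO and 0.474 ± 0.324 in liver YFP+, below the tested level.

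**Figure D4:**
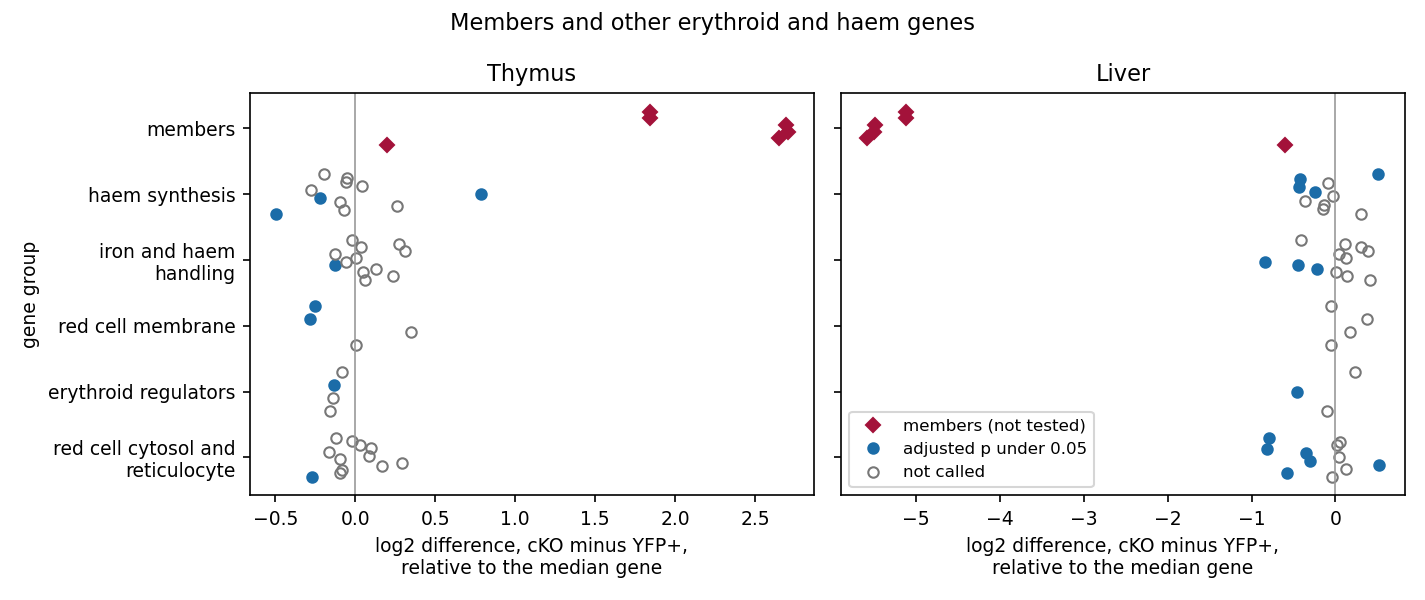
Log2 differences (cKO minus YFP+, relative to the median gene) of the members and of tested genes on 5 erythroid and haem lists, thymus on the left and liver on the right, with 1 point per gene and filled circles for an adjusted p under 0.05. The globins stand far from 0, to the right in the thymus and to the left in the liver, while the other genes lie within about 1 unit of it.

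In the thymus 43 genes of these lists were tested. With limma, 1 was higher and 7 lower in cKO, 18.6% of the 43, beside 15.7% of all 9097 genes tested. The list's median log2 difference as deposited was -0.22, beside -0.16 for all genes. After rescaling by median ratios the split was 2 higher and 0 lower, so the direction of the thymus list rests on the scaling. Leaving out cKO replicate 1 gave 14 calls, and leaving out replicate 2 or 3 of that group gave 3 each. With YFP+ replicate 1 or 3 left out there was 1 call, and with YFP+ replicate 2 left out there were 2.

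Cpox, the haem synthesis enzyme coproporphyrinogen oxidase, rose to 5.31 ± 0.491 FPKM in thymus cKO, against 3.10 ± 0.133 in thymus YFP+ (log2 difference relative to the median gene 0.79, SE 0.09, adjusted p = 0.00559 with limma). It kept its call in all 11 alternatives. It rose in cKO replicate 2 as in the other cKO libraries (5.66, 4.75 and 5.53 FPKM), so it did not follow the globins.

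The 7 lower genes in the thymus each lost their call in 5 or more of 11 alternatives. Abcb10, a mitochondrial transporter linked to haem synthesis, was at 1.54 ± 0.242 FPKM in thymus cKO and 3.05 ± 0.705 in thymus YFP+ (adjusted p = 0.0215 with limma). Epb4.1, protein 4.1 of the membrane skeleton, was at 7.75 ± 0.774 FPKM in thymus cKO and 10.9 ± 0.668 in thymus YFP+ (adjusted p = 0.0203). Gypc, glycophorin C, was at 7.67 ± 0.929 FPKM in thymus cKO and 10.6 ± 1.04 in thymus YFP+ (adjusted p = 0.0385). The others were Ppox, Ldb1, Fth1 and Ctse, with adjusted p of 0.0254 to 0.0418.

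Values of other cells moved with the globins in the liver. The 8 B cell markers summed to 2.801 to 4.65 FPKM in liver cKO and 12.4 to 13.2 in liver YFP+, and the 11 macrophage markers to 13.2 to 17.1 FPKM in liver cKO and 50.7 to 66.6 in liver YFP+. The 8 neutrophil markers summed to 48.2 to 53.9 FPKM in liver cKO and 90.4 to 125 in liver YFP+, and the 9 DP thymocyte genes to 25.3 to 26.3 in liver cKO and 82.3 to 92.2 in liver YFP+. Cd4, Cd8a and Cd8b1, which the sort gated out and which the DP thymocyte list also holds, summed to 2.19 to 3.46 FPKM in liver cKO and 21.9 to 24.7 in liver YFP+. These sums did not overlap between the groups and were lower in liver cKO. Lyz2 carried most of the macrophage sum, and without it the other 10 genes summed to 2.90 to 4.01 FPKM in liver cKO and 9.99 to 14.2 in liver YFP+. Among them C1qa, C1qb and C1qc were lower in each liver cKO library, while Cd68, Emr1, Csf1r, Cd5l, Marco, Clec4f and Vsig4 overlapped between the groups. Only Marco (0.135 against 0.096 FPKM) and Clec4f (0.027 against 0) had the higher mean in liver cKO, at levels near 0. Of the 10 hepatocyte genes, Trf carried the sum, at 10.6 to 14.4 FPKM in liver cKO and 36.2 to 40.8 in liver YFP+. The other 9 summed to 0.058, 1.41 and 0.403 FPKM in liver cKO, against 0, 0.442 and 0.131 FPKM in liver YFP+, and overlapped.

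Of tested markers, 2 of 2 for B cells, 3 of 4 for macrophages, 4 of 5 for neutrophils and 6 of 6 for DP thymocytes were lower in liver cKO with limma, beside 19.7% of all genes tested in the liver. Some of them, such as Cd79a, C1qa and Camp, reached the tested mean of 1 FPKM only through liver YFP+. The filter thus favoured markers lower in cKO, and nothing is read from these counts. Defining markers were listed at 0 in a whole group in a few cases, Pax5 (B cells) and Vsig4 (macrophages) in liver cKO and Clec4f (Kupffer cells) in liver YFP+. Of the 8 platelet markers, Ppbp, Gp9, Gp1bb, Treml1 and Gp6 were listed at 0 in both liver groups, with sums of 0.131 to 1.21 FPKM in liver cKO and 1.46 to 1.73 in liver YFP+. The part of these cells in the globin difference was not tested.

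In the thymus the globins were high in cKO replicates 1 and 3 alone. The B cell, macrophage, neutrophil and DP thymocyte sums had other orders among the cKO libraries. The DP thymocyte genes summed to 6.90 to 8.59 FPKM in thymus cKO and 17.4 to 22.1 in thymus YFP+, and Cd4, Cd8a and Cd8b1 to 0.390 to 0.968 FPKM in thymus cKO and 2.04 to 3.81 in thymus YFP+. Both sums were lower in every thymus cKO library, and so was Trf. Trf was at 5.92, 4.16 and 4.33 FPKM in thymus cKO, the order of the globins, against 26.0 to 30.3 in thymus YFP+. The neutrophil markers summed to 0.295 to 0.872 FPKM in thymus cKO and 0.255 to 0.475 in thymus YFP+, and S100a8 was listed at 0 in all 6 libraries. The 11 macrophage markers summed to 1.445 to 2.019 FPKM in thymus cKO and 0.834 to 2.29 in thymus YFP+. The 15 interferon-stimulated genes did move with the globins among the cKO libraries, with sums of 593, 101 and 203 FPKM in thymus cKO, against 290, 276 and 260 in thymus YFP+. The order of the cKO libraries, replicate 1 above 3 above 2, was that of the globins. It is not particular to these genes. The haem synthesis list (98.6, 87.3 and 90.7 FPKM) and all rows together (194655, 187828 and 194133 FPKM) had the same order in thymus cKO. The part of interferon-stimulated RNA in this order was not tested.

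**Figure D5:**
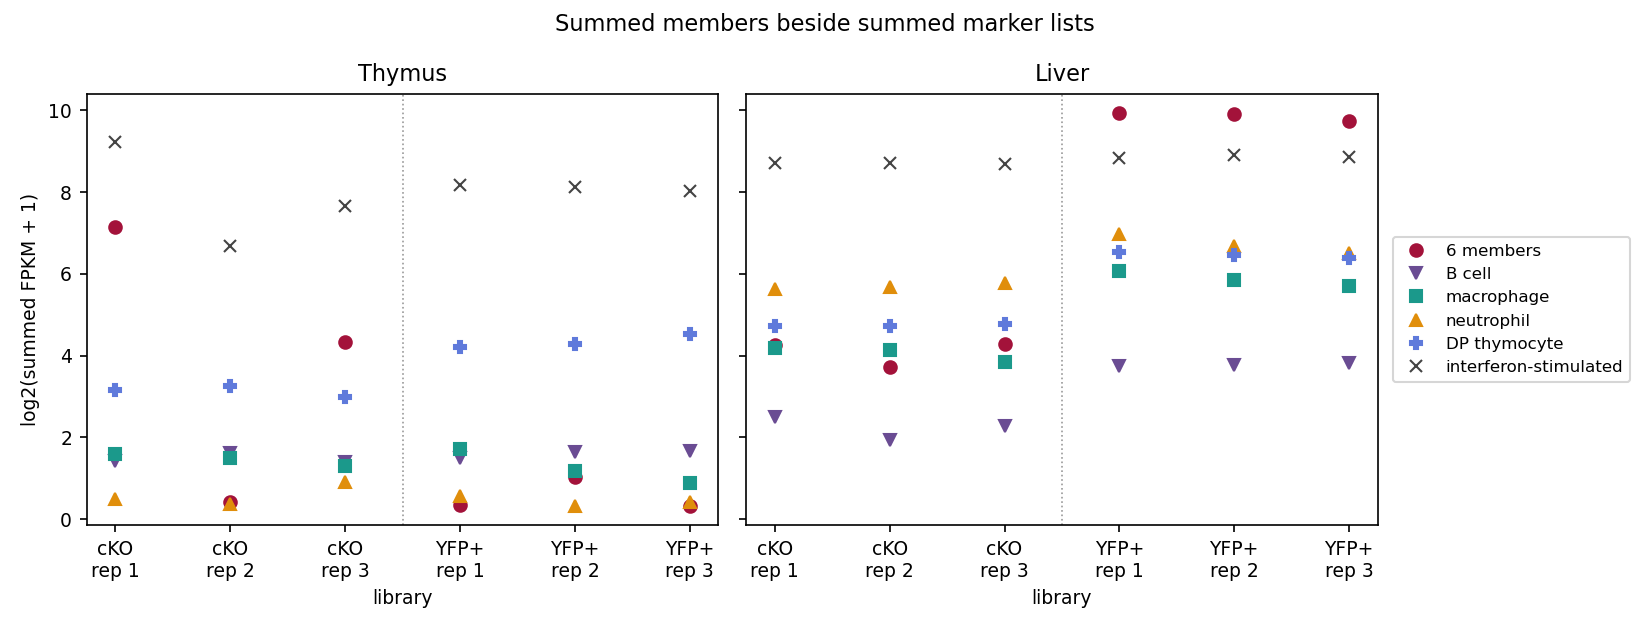
Summed FPKM of the 6 members and of 5 marker lists in each library as log2(sum + 1), thymus on the left and liver on the right, with 1 point per list and library. In the liver the B cell, macrophage, neutrophil and DP thymocyte sums are higher in YFP+ as the members are. Of these 5 lists, only the interferon-stimulated one orders the thymus cKO libraries as the members do.

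The genes most like the summed members in the liver, by Pearson r on log2(FPKM + 1) over its 6 libraries, were Ssna1 (0.9997), Sdhc (0.9996), Plac8 (0.9995) and Eif2s3y (0.998). Plac8, a small cysteine-rich protein of myeloid and lymphoid cells, was at 2.18, 1.38 and 1.99 FPKM in liver cKO, against 47.8, 43.5 and 45.7 FPKM in liver YFP+. Any gene with a tight difference between the groups scores high here. In the thymus they were 2210039B01Rik (0.989), Degs1 (0.979), Gpsm2 (0.977) and Socs2 (0.975). Gpsm2, a regulator of spindle orientation, was at 5.18, 1.33 and 2.29 FPKM in thymus cKO, against 0.855, 1.19 and 0.968 FPKM in thymus YFP+.

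With the mean of each group taken off, over all 12 libraries, the 4 most like were H2-T10 (0.983), Trim30a (0.979), Snord110 (0.972) and Mnda (0.969). The thymus cKO libraries carry most of the spread in this measure. Trim30a, an interferon-induced gene, was at 41.0, 13.4 and 23.1 FPKM in thymus cKO, against 27.1, 29.2 and 26.6 FPKM in thymus YFP+. Mnda, an interferon-inducible nuclear protein gene, was at 19.2, 4.96 and 10.6 FPKM in thymus cKO, against 8.96, 8.19 and 7.76 in thymus YFP+.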

How the data were processed

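The 12 libraries hold RNA of sorted NKT cells. Per the labels' protocols, total RNA was turned into cDNA with a SMARTer kit and sequenced after a TruSeq or ThruPLEX preparation, without saying which library had which. The values are FPKM, deposited by the authors in a thymus and a liver table, made with TopHat2 (2.8.0 as given) and Cufflinks 2.1.1 on mm9, per the submitters' processing notes. Strand use and read totals are not given in the sources used here. Among genes listed at low values, the modal ratio of a library to cKO replicate 1 of its tissue was 0.895 to 1.09, so relative denominators were close and absolute depth is unknown. Rows listed at 0 numbered 4033 to 4370 in thymus cKO and 4571 to 5740 in thymus YFP+. In the liver they numbered 6702 to 6841 in cKO and 8800 to 8869 in YFP+. Detection near 0 thus differed between the liver groups, which limits comparisons of low values there. Summed FPKM were 187828 to 212688 in thymus and 450429 to 558042 in liver libraries, and 0 columns were unmapped.

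Groups came from the titles. limma 3.58.1 (R 4.3.3) with a mean-variance trend was fitted to log2(FPKM + 1) in each tissue and, for the difference between tissues, on all 12 libraries, over all genes whose mean reached 1 FPKM, with Benjamini-Hochberg adjustment at 0.05. The fit was tested on simulated data. The members and lists were chosen with earlier results of these data known. The text names the 6 members, 12 fixed red cell and haem genes of which Ahsp was not found, up to 8 called list genes per tissue with groups that did not overlap, and the 4 genes most like the members per measure. Alternatives were median-ratio scaling, scaling to the FPKM outside the members, a pseudocount of 0.1, no filter, a replicate block and leaving out each library, and, chosen after the data were seen, the liver groups of the descriptions for the difference between tissues. Promoters are RefSeq sequences on GRCm38.p6, a build other than that of the files, and no coordinates of the files were used. Some genes of these lists are not reported here.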

Additional observations from a re-analysis of the deposited data

Results flagged for a closer look

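The members themselves were not tested between tissues. Among the other erythroid and haem genes, 6 of 44 tested (13.6%, beside 15.1% of all 9739 genes) had a difference between cKO and YFP+ that differed between liver and thymus, by limma on all 12 libraries with the liver groups of the titles. The value is the liver difference minus the thymus difference in log2, as deposited, and the median of all genes was 0.06. It was 0.75 for Alas1 (adjusted p = 0.00598), which was higher in liver cKO than in liver YFP+ (10.6 against 7.81 FPKM) and lay at 3.72 in thymus cKO against 5.03 in thymus YFP+. It was 0.72 for Epb4.1 (adjusted p = 0.00623), at 4.19 FPKM in liver cKO against 3.30 in liver YFP+, and 7.75 in thymus cKO against 10.9 in thymus YFP+. Both kept their calls in 17 of 18 alternatives. The exception takes the liver groups from the descriptions and was added after the data were seen. It gave -0.04 for Alas1 (adjusted p = 0.872) and 0.18 for Epb4.1 (0.364), so both calls rest on the titles. It was -0.86 for Fam46c (adjusted p = 0.0181), which lost its call with no filter on low values (0.0528) and was 0.99 (0.00391) with the groups of the descriptions. It was -0.29 for Ftl1 (adjusted p = 0.0306), 0.42 for Ldb1 (0.0444) and 0.41 for Ubac1 (0.0490), with calls kept in 9, 3 and 3 of the 18 alternatives. With the groups of the descriptions these were 0.36 (0.00499), 0.18 (0.303) and -0.41 (0.0242).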

How the results depend on the processing

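The log2 difference of the summed members kept its direction under every alternative run. Over scalings and pseudocounts, thymus values ran from 3.40 to 4.33 and liver values from -5.85 to -5.55, and without 1 library from 1.82 to 5.17 (thymus) and from -5.87 to -5.59 (liver). In the thymus the count of calls over all genes, 1429, became 812 with median-ratio scaling, 929 with scaling to the FPKM outside the members, 481 with no filter and 787 with a replicate block, and 472 to 2408 without 1 library. The other erythroid and haem genes, 8 calls in the thymus, gave 2, 3, 1 and 4 under the same alternatives and 1 to 14 without 1 library. In the liver they gave 10 to 14 without 1 library beside 14, and all genes 1539 to 2640 beside 2607, lowest without YFP+ replicate 2. For the difference between tissues the 6 list calls became 3 with a replicate block and 3 to 6 without 1 library, and all genes gave 983 to 1700 beside 1466. With the liver groups of the descriptions, an alternative added after the data were seen, the difference between tissues gave 20 list calls and 3390 calls over all genes. Higher and lower calls over all genes were 448 and 364 with median-ratio scaling beside 240 and 1189 in the thymus, and 1036 and 1066 beside 718 and 1889 in the liver; the liver median moved to 0.08 with scaling to the FPKM outside the members. The cause of these moves was not tested. Direction turned for genes that were not called: in the thymus Fam46c (0.11 with median ratios, 0.0147 with scaling outside the members, and -0.207 to 0.135 without 1 library, above 0 without cKO replicate 1) and Uros (0.0464 with median ratios), and in the liver Ctse (0.0578), Gypc (0.0622) and Ppox (0.0812) with scaling outside the members. Equal replicate numbers share only a number: deviations of same-numbered libraries had correlations between -0.0465 and 0.00763 (thymus) and between -0.0634 and 0.0659 (liver). Depth limits the genes near 0.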

Other observations

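Eif2s3y, a gene of the Y chromosome, came up among the genes most like the members in the liver. It was at 10.9, 9.46 and 9.89 FPKM in liver cKO, against 24.8, 25.04 and 24.5 FPKM in liver YFP+, and listed at 0 in all 6 thymus libraries. Xist, the RNA of the inactive X chromosome in females, was read after that value was seen. It was at 5.78, 6.16 and 5.06 FPKM in liver cKO, against 3.30, 2.70 and 2.81 FPKM in liver YFP+, and at 3.26 to 4.27 in thymus cKO and 3.60 to 3.92 in thymus YFP+. Ddx3y, also on the Y chromosome, was at 8.45, 8.37 and 8.30 FPKM in liver cKO, against 14.9, 17.5 and 16.4 FPKM in liver YFP+. Every liver library thus held both Xist and Y-linked RNA. The Y-linked genes were lower in liver cKO, as the globins were, and Xist was higher there. The part of the sex of the mice in the globin difference was not tested.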
